A study of Mus musculus with 36 samples.

Results

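The 10 genes described here make and load MHC class I molecules. Their RNA was sequenced from primary mouse glia, microglia in one set and astrocytes in another, treated for 4 h with agents that engage the kinase RIPK1. They are B2m, H2-K1, H2-D1, Tap1, Tap2, Tapbp, Psmb8, Psmb9, Psmb10 and Nlrc5, and their rows were found by gene symbol. All 10 were listed among the 15385 genes of the microglial table and among the 14551 genes of the astrocyte table, and all 10 passed the filter on low values in both.

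Both cell types came from pooled brains of C57BL/6 pups aged 2 to 4 days, grown as mixed glia for 12 days. Microglia were then taken with CD11b beads, and astrocytes were selected from the fraction that the microglia had left. Microglia gave 24 libraries, 4 each for DMSO (the vehicle), Nec-1s (an inhibitor of RIPK1 kinase activity), TNF/5z-7 (T/5z, TNF with an inhibitor of the kinase TAK1), TNF/5z-7/Nec-1s (T/5z/N), TNF/Smac/zVAD (T/S/Z, TNF with a Smac mimetic and a caspase inhibitor) and TNF/Smac/zVAD/Nec-1s (T/S/Z/N). Astrocytes gave 12 libraries, 3 each for DMSO, Nec-1s, T/S/Z and T/S/Z/N. No genetic change is named for any group, and no group received TNF alone. The labels call the microglial libraries biological replicates and the astrocyte libraries replicates, and the study's methods describe its replicates in general as animals or litters of their own.

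MHC class I molecules display peptides from inside the cell to CD8+ T cells. The proteasome cuts the peptides, a transporter moves them into the endoplasmic reticulum, and a loading complex places them on a heavy chain bound to beta-2 microglobulin. In the immunoproteasome the inducible catalytic subunits take the places of their constitutive counterparts. Interferons and TNF are well known to raise class I genes in many cells, and resting brain cells are known for low class I levels.

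Of the 10 genes, 7 lie within chr17:33915899-35267499 of the mouse build GRCm38, inside the major histocompatibility complex. The heavy chain genes there are H2-K1 (minus strand, chr17:33996017-34000333 in the microglial annotation) and H2-D1 (plus strand, chr17:35262730-35267499). Tap1 lies at chr17:34187553-34197225 and Tap2 at chr17:34203527-34216321, both on the plus strand. B2m lies at chr2:122147686-122153083, Psmb10 at chr8:105935739-105938444 and Nlrc5 at chr8:94434391-94527272. All 10 are annotated as protein coding. The deposited annotation marked 8 of the 10 as confounded with another gene. The mark was common, on 7834 of 15385 microglial genes and 8207 of 14551 astrocyte genes. Each of the 8 overlaps a gene in GENCODE M21: the gene B2m lies wholly within the span of Patl2 on the opposite strand, and Tap1 and Psmb9 share 212 bases head to head. Whether counting used the strand is not given in the sources used here, so reads of a gene and of its antisense partner cannot be told apart. In the astrocyte annotation Tapbp also overlaps Zbtb22 on the same strand over 3422 bases. In both annotations Nlrc5 overlaps Mir7072 on the same strand over 60 bases. Strand alone would not separate the reads of these pairs, and their part in the values was not tested. H2-K1 and H2-D1 bore no such mark, but they are close copies of one family, and how reads were split between them and other H2 genes is uncertain.

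Start-site sequences show what 3 of these genes share outside the expression values. RefSeq windows from 250 bases before to 50 bases after the start site (GRCm38.p6) were matched for 8 of the 10 genes, all but Tap2 and Nlrc5. Both strands were searched for the IRF core AANNGAAA, the NF-kB consensus, the CRE core TGACG, the Y box CCAAT and the GAS motif TTCNNNGAA. The stretches below are those before B2m (chr2:122147542-122147686, plus strand), before H2-K1 (chr17:34000348-34000466, minus strand) and the matching stretch of H2-D1 (chr17:35262923-35262951, plus strand, inside an exon of a longer annotated transcript). They are shown because NF-kB and IRF matches stand close together in each. The stretch of Tap1 (chr17:34187458-34187487, plus strand, inside an exon of a Psmb9 transcript) is shown for contrast, since no NF-kB or IRF match lies in its window. Capitals mark the letters that matched a motif.
B2m: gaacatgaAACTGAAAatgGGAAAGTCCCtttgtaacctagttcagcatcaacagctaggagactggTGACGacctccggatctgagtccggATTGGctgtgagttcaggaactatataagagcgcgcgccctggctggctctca
H2-K1: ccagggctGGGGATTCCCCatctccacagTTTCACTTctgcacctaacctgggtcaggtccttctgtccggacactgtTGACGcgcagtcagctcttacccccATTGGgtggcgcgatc
H2-D1: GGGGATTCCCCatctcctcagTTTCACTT
Tap1: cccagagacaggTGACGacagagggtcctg

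In B2m the IRF match (positions -137 to -130 from the start site) lay before the NF-kB match (-126 to -117). In H2-K1 the order was the other way round, with the NF-kB match at -111 to -101 and the IRF match at -90 to -83, and in H2-D1 these stood at -171 to -161 and -150 to -143. The windows of H2-K1 and H2-D1 were identical at 176 of 240 aligned bases (73.3%), with a run of 47 identical bases around the NF-kB match. These windows are therefore not separate instances. Each of the 3 also held a CRE core and a Y box. Such matches also occur by letter alone: of 32851 mouse windows, 23.9% held the IRF core, 4.51% the NF-kB consensus, 20.8% TGACG, 37.4% CCAAT and 8.3% the GAS motif. How many windows held an NF-kB and an IRF match close together was not counted. In the same search the Psmb8 window held a GAS match at -97 to -89, and the Psmb10 window held none of the 5 motifs. The Tap1 and Psmb9 windows share 275 bases read on opposite strands, so TGACG at -86 in Tap1 and at -144 in Psmb9 are the same bases.

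**Figure D1:**
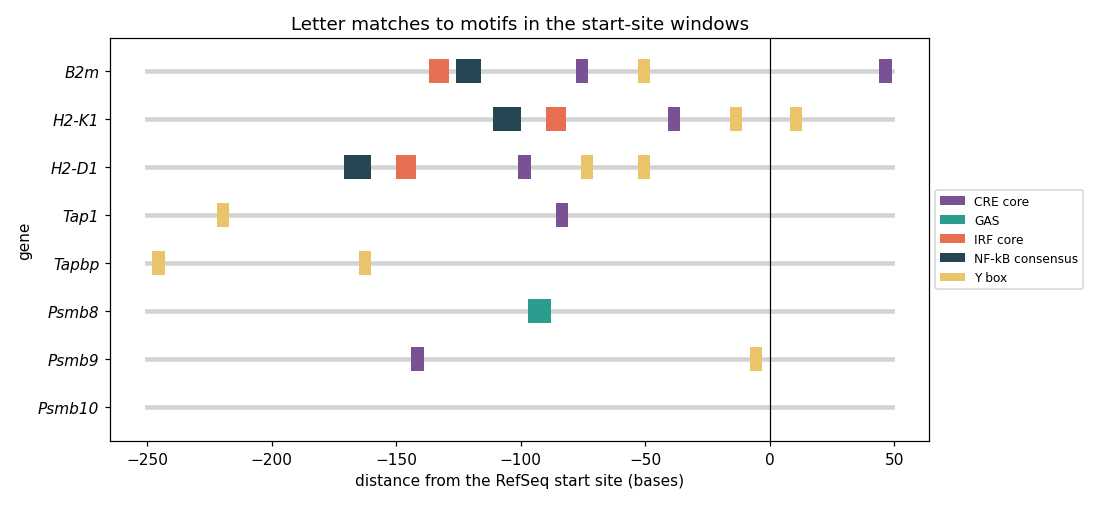
Letter matches to 5 motifs in the start-site windows of 8 class I genes; the horizontal axis is the distance from the RefSeq start site in bases, and each mark is a match on either strand. B2m, H2-K1 and H2-D1 each carry an NF-kB match beside an IRF match, which no other window shown does.

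The deposited values are described as log2(FPKM + 1) and are called levels here, and a change is a difference between levels. Microglial replicates 1 to 3 held 187 to 1438 values below 0 per library, which that scale cannot give, and replicate 4 held 0, so linear FPKM values from the former are approximate. Total counts per library are not in the tables. In libraries where the smallest recurring step of the values could be read, the lowest of the 10 genes stood at no fewer than 139 steps in microglia (Nlrc5) and 176 in astrocytes (Psmb9), but a step may not equal 1 read. For microglial replicates 1 to 3 the depth is unknown. In the microglial table the mean of every gene over the 6 treatments was equal in the 4 replicates to within 6.67e-05, an adjustment that the sources do not describe; it was not so in astrocytes, and its part in the p-values was not tested. The 15 microglial markers summed to between 12345 and 15181 on the linear FPKM scale in microglial libraries and to between 78.2 and 143 in astrocyte libraries. The homeostatic markers P2ry12 and Tmem119 were low in DMSO microglia, at 4.27 and 9.04 FPKM. None of the 6 T and NK cell markers was listed in either table. The tables were normalized separately, and cell type and sequencing provider cannot be told apart, so no level is tested between them. The tables also used different exon lengths, 1641 bases for H2-K1 in microglia and 2938 in astrocytes, 1628 and 3381 for Psmb8, and 1351 and 3660 for Psmb9, which enter FPKM directly. In bulk libraries, fewer cells of a type and less RNA per cell cannot be told apart either.

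In DMSO microglia the class I molecule itself was among the most abundant transcripts. B2m, the light chain, stood at log2 levels of 12.40, 12.44, 12.59 and 12.40, and 5 of 15385 genes lay above it on average. H2-D1 and H2-K1, the heavy chains, averaged 11.63 ± 0.04 and 11.29 ± 0.01 (SD, n = 4), with 11 and 14 genes above them. The processing and loading genes followed in the order Tapbp (7.88 ± 0.07), Psmb8 (6.98 ± 0.05), Psmb10 (6.53 ± 0.02), Tap1 (6.12 ± 0.06), Psmb9 (5.10 ± 0.02) and Tap2 (4.93 ± 0.08). Nlrc5, the transactivator of class I genes, was lowest of the 10 at 1.79 ± 0.11. No neighbouring pair in this order overlapped between libraries.

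DMSO astrocytes held the same 10 transcripts at other levels. B2m was again the highest of the 10 (9.15, 9.24 and 9.21), with 69 of 14551 genes above it. H2-D1 (6.67 ± 0.09, SD, n = 3) and H2-K1 (6.65 ± 0.15) overlapped, and Tapbp followed at 5.70 ± 0.14. Psmb10 (3.89 ± 0.34), Tap2 (3.59 ± 0.12), Tap1 (3.35 ± 0.21) and Psmb8 (3.06 ± 0.32) each overlapped the next in this order. Psmb9 (1.95 ± 0.21) and Nlrc5 (1.55 ± 0.22) were lowest of the 10 and overlapped each other. Side by side on the linear scale, mean B2m was 587 FPKM in astrocytes and 5629 in microglia, H2-K1 was 99.1 and 2501, Tap2 was 11.0 and 29.5, and Nlrc5 was 1.92 and 2.45.

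**Figure D2:**
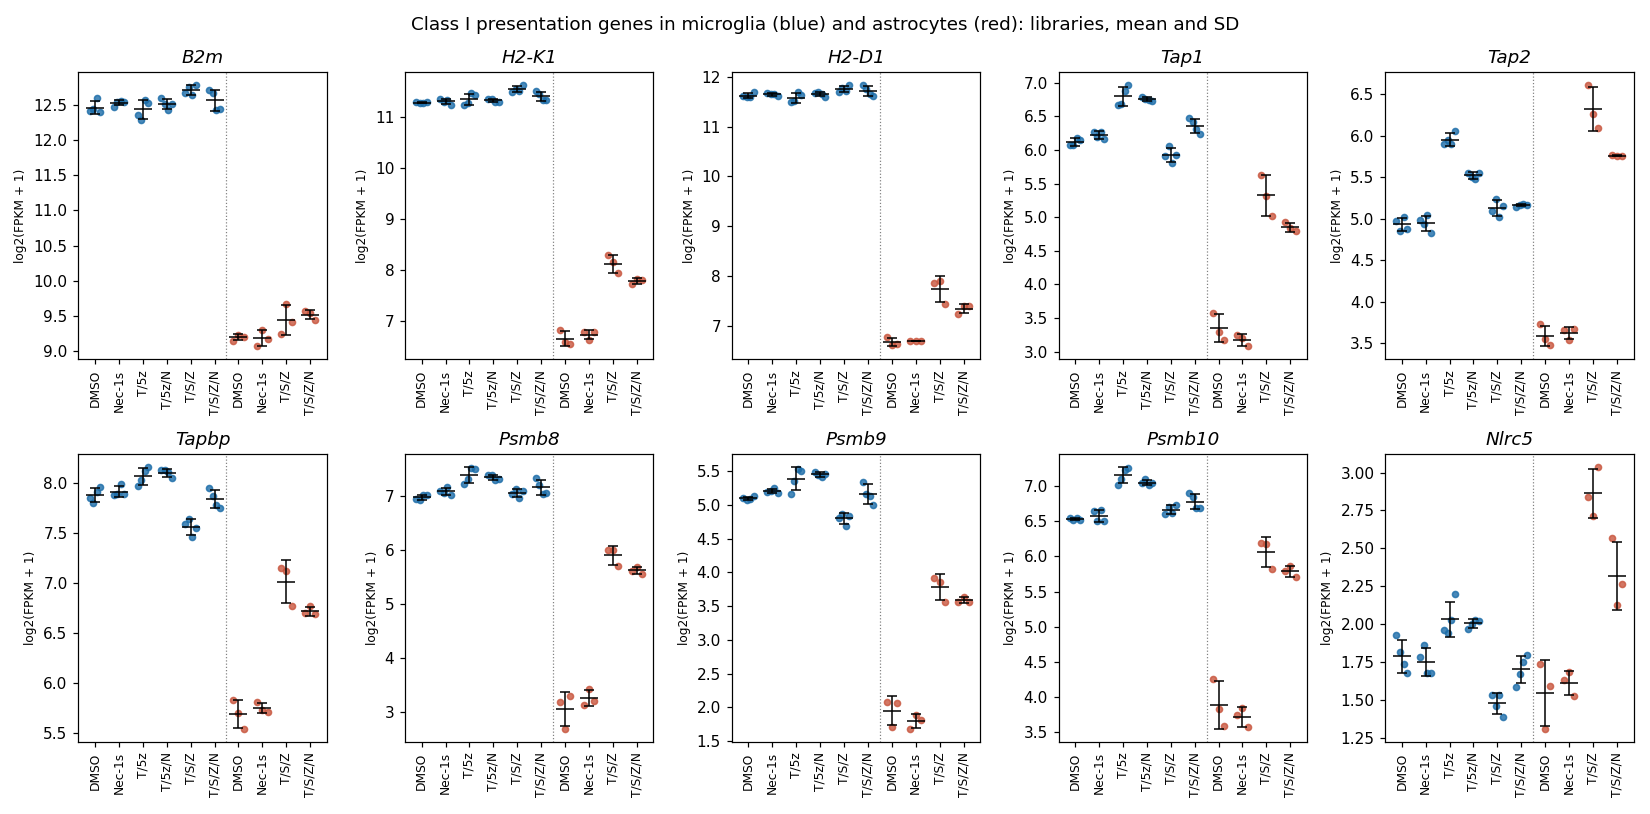
Levels of the 10 class I genes, 1 panel a gene, as log2(FPKM + 1) in each library (points) with the group mean and SD, by treatment; microglia are blue and astrocytes red. In 9 of 10 panels the astrocyte T/S/Z points stand well above the astrocyte DMSO points, while the microglial points of B2m, H2-K1 and H2-D1 stay within a narrow band.

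T/S/Z raised 9 of the 10 genes in astrocytes, the exception being B2m. A gene was called when its adjusted p was under 0.05 (limma, Benjamini-Hochberg over all genes tested) and its fold change was over 1.5, and by this rule 6.39% of the 13842 astrocyte genes tested were called higher. Changes ran from 2.09-fold for H2-D1 to 7.16-fold for Psmb8. The median change of the 10 genes was 1.66 on the log2 scale, against -0.11 over all genes tested.

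Both genes of the peptide transporter rose. Tap2, a subunit of the transporter, stood at 3.72, 3.55 and 3.48 in DMSO and at 6.61, 6.26 and 6.09 after T/S/Z. Its 3 treated libraries lay far above the controls, a change of 2.74 (SE 0.08, 6.66-fold, limma adjusted p = 1.2e-06). Tap1, its partner, stood at 3.58, 3.29 and 3.17 in DMSO and at 5.63, 5.32 and 5.02 after T/S/Z. The lowest treated library was again above every control, with a change of 1.98 (SE 0.08, 3.94-fold, limma adjusted p = 5.52e-06). Tapbp, or tapasin, which holds the empty heavy chain next to the transporter, went from 5.83, 5.71 and 5.55 to 7.16, 7.12 and 6.77 without overlap and changed by 1.32 (SE 0.07).

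The inducible proteasome subunits rose with them. Psmb8 stood at 3.19, 2.70 and 3.30 in DMSO and at 6.00, 6.00 and 5.71 after T/S/Z, with a gap of more than 2 log2 units between the groups and a change of 2.84 (SE 0.15, limma adjusted p = 2.02e-05). Psmb10 stood at 4.25, 3.83 and 3.58 in DMSO and at 6.19, 6.18 and 5.82 after T/S/Z. The groups did not overlap, and the change was 2.18 (SE 0.10, 4.52-fold). Psmb9 went from 2.07, 1.70 and 2.07 to 3.92, 3.87 and 3.56, again without overlap, a change of 1.83 (SE 0.14, 3.57-fold).

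The heavy chains rose 2.78-fold and 2.09-fold, and the light chain did not pass the test. H2-K1 stood at 6.82, 6.58 and 6.54 in DMSO and at 8.29, 8.15 and 7.93 after T/S/Z. All treated libraries lay above all controls, and the change was 1.48 (SE 0.07, 2.78-fold, limma adjusted p = 1.33e-05). H2-D1 stood at 6.77, 6.61 and 6.63 in DMSO and at 7.86, 7.90 and 7.44 after T/S/Z, which did not overlap and gave a change of 1.06 (SE 0.10). B2m stood at 9.25, 9.67 and 9.42 after T/S/Z, where the lowest library was just above the highest control. Its change was 0.25 (SE 0.10, 95% confidence interval 0.02 to 0.47, limma adjusted p = 0.0779). Nlrc5 stood at 1.74, 1.31 and 1.59 in DMSO and at 2.84, 2.71 and 3.04 after T/S/Z, so that all treated libraries were higher, by 1.32 (SE 0.11, 2.49-fold, limma adjusted p = 0.000163).

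Other markers moved with T/S/Z in the astrocyte cultures. The 15 microglial markers summed to 134 to 140 FPKM in DMSO and to 78.2 to 84.7 after T/S/Z. The 6 fibroblast and mural markers summed to 612 to 626 FPKM in DMSO, 112 to 125 after T/S/Z and 490 to 492 after T/S/Z/N. The 10 astrocyte markers summed to 3280 to 3349 in DMSO and 2936 to 3117 after T/S/Z. The endothelial markers (2 of 5 listed) went from 13.6 to 14.7 FPKM down to 5.79 to 6.43, and those of the oligodendrocyte lineage (7 of 8 listed) from 100.2 to 117 down to 60.3 to 86.9. The part of these shifts in the changes of the class I genes was not tested.

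With Nec-1s added, the same 9 genes were still above DMSO. T/S/Z/N libraries stood above DMSO for H2-K1, H2-D1, Tap1, Tap2, Tapbp, Psmb8, Psmb9, Psmb10 and Nlrc5 (4.36% of all genes tested were called higher), from 0.67 (SE 0.08) for H2-D1 to 2.57 (SE 0.14) for Psmb8, with Tap2 at 2.17, Psmb10 at 1.90, Psmb9 at 1.64, Tap1 at 1.505, H2-K1 at 1.14, Tapbp at 1.03 and Nlrc5 at 0.77. B2m was 0.32 above DMSO (limma adjusted p = 0.018) and below the 1.5-fold minimum. The H2-D1 call rested on replicate 2, without which its change was 0.62 with a limma adjusted p of 0.0505. Nlrc5 lost its call with 5 added before the log, where its change was 0.38. From DMSO to T/S/Z/N the oligodendrocyte lineage markers went from 100.2 to 117 FPKM down to 67.9 to 71.9. The astrocyte markers went from 3280 to 3349 down to 2960 to 2976, and the microglial markers from 134 to 140 down to 115 to 124. The part of these shifts in the changes was not tested.

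Against T/S/Z, adding Nec-1s called none of the 10 astrocyte genes by limma (3.1% of all genes tested were called in either direction), although 8 of the 10 had an unadjusted p under 0.05, where 4134 of 13842 genes did. With no fold minimum 3 were lower (3.77% of all genes tested). Tap2 stood at 5.76, 5.75 and 5.76 in T/S/Z/N, below every T/S/Z library, a difference of -0.56 (SE 0.11, limma adjusted p = 0.0299). Nlrc5 stood at 2.57, 2.13 and 2.26, also without overlap, and differed by -0.54 (SE 0.12, limma adjusted p = 0.0401). Tap1 stood at 4.92, 4.84 and 4.79, likewise below every T/S/Z library, and differed by -0.47 (SE 0.11, limma adjusted p = 0.0422, or 0.0664 without the replicate block). Single libraries decided these calls: without replicate 3, Tap1 (-0.59) and Tap2 (-0.68) passed the fold minimum, and without replicate 1 Nlrc5 (-0.68) did. The median difference of the 10 genes was -0.32, against 0.03 over all genes. B2m alone was not lower, at 0.07, and turned to -0.050 without replicate 1. From T/S/Z to T/S/Z/N the microglial markers went from 78.2 to 84.7 FPKM up to 115 to 124, the endothelial markers from 5.79 to 6.43 up to 11.5 to 14.1, and the fibroblast and mural markers to the 490 to 492 given above. Their part in these differences was not tested.

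In microglia T/5z raised the transporter genes and Psmb10, while no change of the light and heavy chains passed the test. Of the 10 genes 3 were called higher, where 11.1% of the 10524 genes tested were. Tap2 stood at 4.97, 4.85, 5.02 and 4.88 in DMSO and at 5.90, 5.95, 5.90 and 6.06 after T/5z. The groups lay well apart, and the change was 1.02 (SE 0.06, 2.03-fold, limma adjusted p = 1.23e-05). Tap1 went from 6.07, 6.07, 6.18 and 6.15 to 6.67, 6.68, 6.87 and 6.97, without overlap, a change of 0.68 (SE 0.05, 1.60-fold, limma adjusted p = 3.82e-05). Psmb10 stood at 6.55, 6.51, 6.55 and 6.52 in DMSO and at 7.02, 7.10, 7.23 and 7.26 after T/5z. These did not overlap either, with a change of 0.62 (SE 0.06, 1.54-fold, limma adjusted p = 8.39e-05), which fell to 0.58 and below the fold minimum without replicate 4. Under quantile normalization Tap1 (0.50) and Psmb10 (0.41) were also below the fold minimum, which left Tap2 as the 1 gene called.

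With no fold minimum, 6 of the 10 were higher after T/5z (27.4% of all genes tested). The further 3 were Psmb8 (0.41, SE 0.05), Psmb9 (0.29, SE 0.07) and Tapbp (0.19, SE 0.04), and Tapbp turned to -0.057 under quantile normalization. Nlrc5 did not pass, at 0.24 (limma adjusted p = 0.061). B2m changed by -0.03 (95% confidence interval -0.17 to 0.11), H2-D1 by -0.04 (-0.17 to 0.09) and H2-K1 by 0.07 (-0.07 to 0.20). Those intervals leave out any change of 1.5-fold, although the signs of these 3 small values turned under at least one of the other scalings tried. The median of the 10 genes was 0.27, against -0.06 over all genes tested. The 10 astrocyte markers in these libraries summed to 7.31 to 9.41 FPKM in DMSO and 12.5 to 22.8 after T/5z. The fibroblast and mural markers summed to 6.66 to 9.10 in DMSO and 12.7 to 21.7 after T/5z, and the endothelial markers (3 of 5 listed) to 5.82 to 6.81 and 3.45 to 4.83. The part of these shifts in the changes was not tested.

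After T/S/Z none of the 10 genes was called in microglia by limma, in a comparison that called 29.6% of all genes tested, and 9 of the 10 had an unadjusted p under 0.05, where 7742 of 10524 genes did. The changes were small and went both ways. With no fold minimum 5 were higher (30.3% of all genes tested): H2-K1 by 0.26 (SE 0.04), B2m by 0.25 (SE 0.06), Tap2 by 0.20 (SE 0.07), H2-D1 by 0.14 (SE 0.04) and Psmb10 by 0.13 (SE 0.05). A further 4 were lower (41.1% of all genes tested): Tapbp by -0.32 (SE 0.06), Nlrc5 by -0.31 (SE 0.08), Psmb9 by -0.30 (SE 0.06) and Tap1 by -0.19 (SE 0.07). Psmb8 changed by 0.08 (limma adjusted p = 0.208). The 10 astrocyte markers summed to 7.31 to 9.41 FPKM in DMSO and to 14.0 to 20.4 after T/S/Z, and the endothelial markers to 5.82 to 6.81 and 2.70 to 3.34. The part of these shifts in the changes was not tested.

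The individual libraries show this split. H2-K1 stood at 11.29, 11.28, 11.28 and 11.30 in DMSO and at 11.50, 11.56, 11.51 and 11.64 after T/S/Z, so that every treated library was higher. Nlrc5 stood at 1.93, 1.81, 1.74 and 1.68 in DMSO and at 1.53, 1.46, 1.53 and 1.39 after T/S/Z, so that every treated library was lower. Tapbp went from 7.85, 7.80, 7.92 and 7.97 to 7.59, 7.64, 7.46 and 7.55, and Psmb9 from 5.11, 5.08, 5.10 and 5.13 to 4.81, 4.87, 4.69 and 4.84. Neither of these overlapped between groups. The direction of the small rises depends on the scaling: under quantile normalization 8 of the 10 genes lay below 0 in place of 4, with H2-K1 at -0.26, H2-D1 at -0.24, Psmb8 at -0.31 and Psmb10 at -0.17, while Tapbp reached -0.75 and was called.

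**Figure D3:**
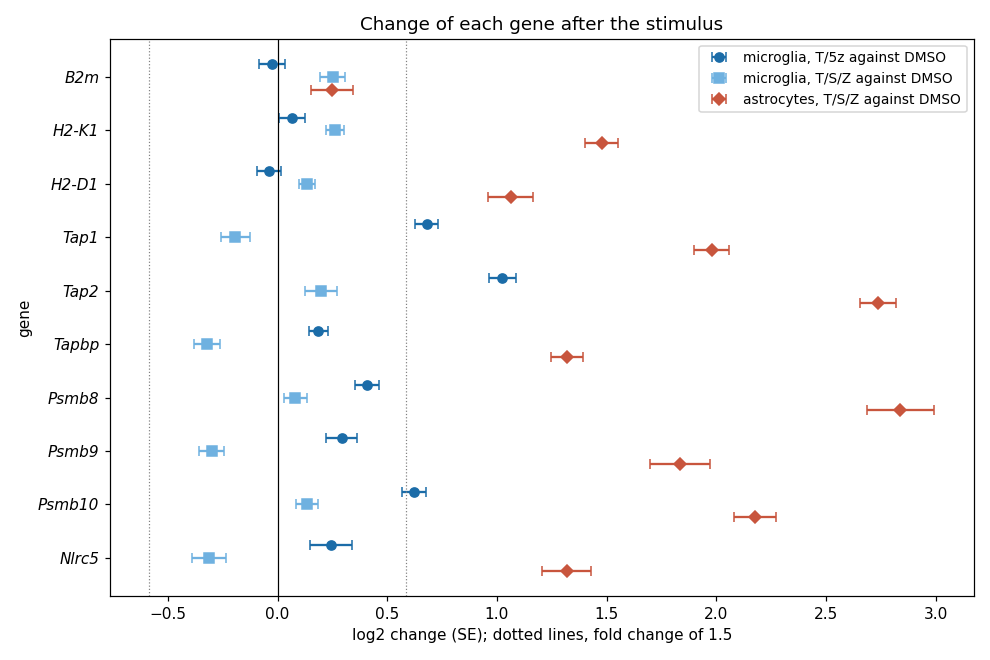
Change of each class I gene against DMSO in log2 units (points) with its SE (bars) after T/5z in microglia, T/S/Z in microglia and T/S/Z in astrocytes; dotted lines mark a fold change of 1.5. The astrocyte points lie between 0.25 and 2.84, the microglial T/5z points between -0.04 and 1.02 and the microglial T/S/Z points between -0.32 and 0.26.

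The microglial stimuli were also compared directly. Both contain TNF and differ in every other agent, so a difference cannot be assigned to one of them. Called lower after T/S/Z than after T/5z were 3 of the 10 genes (4.42% of all genes tested): Tap1 by -0.87 (SE 0.08, limma adjusted p = 0.000235), Tap2 by -0.83 (SE 0.05, limma adjusted p = 4.64e-05) and Psmb9 by -0.59 (SE 0.08, limma adjusted p = 0.00151). Tap1 in the T/S/Z libraries stood at 5.91, 6.06, 5.80 and 5.93 and Tap2 at 5.09, 5.24, 5.02 and 5.15, all below their T/5z libraries. The call of Psmb9 was lost without replicate 3 (-0.51) or without replicate 4 (-0.56), and Nlrc5 (-0.55) gained one without replicate 1 (-0.60). With no fold minimum 7 genes were lower (21.4% of all genes tested), with Tapbp at -0.51, Psmb10 at -0.49 and Psmb8 at -0.33 beside those named. B2m (0.28, SE 0.08) and H2-K1 (0.20, SE 0.06) were higher (18.7% of all genes tested), but under quantile normalization B2m came to 0 and H2-K1 turned to -0.17, and none of the 10 genes lay above 0. H2-D1 differed by 0.17 (limma adjusted p = 0.0686). The fibroblast and mural markers summed to 12.7 to 21.7 FPKM after T/5z and to 5.08 to 8.33 after T/S/Z. The endothelial markers summed to 3.45 to 4.83 and to 2.70 to 3.34. The part of these shifts in the differences was not tested.

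In microglia, adding Nec-1s to either stimulus moved none of the 10 genes past the fold minimum, and the shares of the 10 that passed the test without it were below or near those of all genes. Against T/5z, limma called none of the 10 genes in T/5z/N (7.16% of all genes tested were called), and 1 had an unadjusted p under 0.05, where 5824 of 10524 genes did. That gene was Tap2, the single one lower with no fold minimum (21.1% of all genes tested). Its T/5z/N libraries stood at 5.55, 5.50, 5.48 and 5.55, below every T/5z library, a difference of -0.43 (SE 0.04, limma adjusted p = 9.55e-05). T/5z/N remained above DMSO, where limma called 2 genes higher (6.16% of all genes tested), Tap1 by 0.64 (SE 0.05) and Tap2 by 0.59 (SE 0.06). Psmb10 was 0.52 above DMSO. The Tap2 call against DMSO was lost without replicate 2 (0.57) or replicate 4 (0.56). Under quantile normalization neither Tap1 nor Tap2 was called against DMSO, and with 5 added before the log 1 gene was. The endothelial markers summed to 5.82 to 6.81 FPKM in DMSO and to 3.05 to 3.61 in T/5z/N, and their part in the changes from DMSO was not tested. The astrocyte markers summed to 8.35 to 9.20 FPKM in T/5z/N, below every T/5z library, and the fibroblast and mural markers to 7.27 to 9.20, also below every T/5z library. Their part in the differences from T/5z was not tested.

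Against T/S/Z, limma called none of the 10 genes in T/S/Z/N (12.1% of all genes tested were called), and 4 had an unadjusted p under 0.05, where 6604 of 10524 genes did. Those 4 were higher with no fold minimum (34.1% of all genes tested). Tap1 stood at 6.47, 6.41, 6.31 and 6.23 in T/S/Z/N, above every T/S/Z library, a difference of 0.43 (SE 0.05, limma adjusted p = 0.000433). Psmb9 stood at 5.35, 5.17, 5.14 and 5.00 and Tapbp at 7.95, 7.88, 7.78 and 7.75, also above every T/S/Z library, by 0.36 (SE 0.06) and 0.28 (SE 0.05). Nlrc5 stood at 1.59, 1.67, 1.75 and 1.79, again without overlap, with a difference of 0.22 (SE 0.08, limma adjusted p = 0.0432). Between T/S/Z/N and DMSO limma called none of the 10 genes (14.1% of all genes tested were called), with 4 at an unadjusted p under 0.05, where 5602 of 10524 genes were. The 10 astrocyte markers summed to 14.0 to 20.4 FPKM in T/S/Z and to 4.88 to 6.10 in T/S/Z/N, and their part in these differences was not tested.

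The Nec-1s effects after the 2 stimuli were tested against each other. None of the 10 genes was called by limma (6.47% of all genes tested were), with 6 at an unadjusted p under 0.05, where 4045 of 10524 genes were. With no fold minimum 3 were lower (14.8% of all genes tested), that is, Nec-1s moved them further down or less far up after T/5z than after T/S/Z. These were Tap1 (-0.47, SE 0.11, limma adjusted p = 0.00548), Tap2 (-0.47, SE 0.06, limma adjusted p = 0.000124) and Tapbp (-0.24, SE 0.08, limma adjusted p = 0.0371).

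Nec-1s alone called none of the 10 genes by limma in microglia (0% of all genes tested) or in astrocytes (0.0144% of all genes tested). At an unadjusted p under 0.05 there were 3 of the 10 in microglia, where 892 of 10524 genes were, and none in astrocytes, where 790 of 13842 genes were. The 3 were Psmb8 (0.11), Tap1 (0.11) and Psmb9 (0.10), with limma adjusted p values from 0.526 to 0.532.

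**Figure D4:**
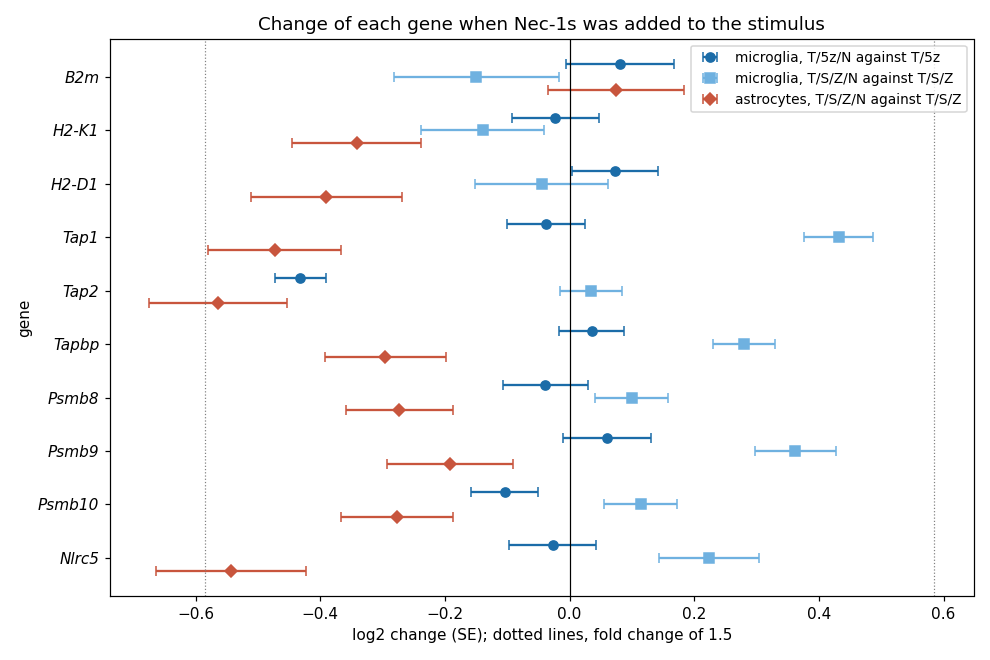
Difference that Nec-1s made for each class I gene in log2 units (points) with its SE (bars), after T/5z in microglia, after T/S/Z in microglia and after T/S/Z in astrocytes; dotted lines mark a fold change of 1.5. Tap1 stands at 0.43 after T/S/Z in microglia and at -0.47 in astrocytes, and no point passes both the test and the fold minimum.

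Each inducible proteasome subunit has a constitutive counterpart, Psmb5 for Psmb8, Psmb6 for Psmb9 and Psmb7 for Psmb10, and their ratio is given as a description within each library. In DMSO microglia the FPKM ratio of Psmb8 to Psmb5 was 1.20 ± 0.05 (SD, n = 4), that of Psmb10 to Psmb7 was 1.08 ± 0.02 and that of Psmb9 to Psmb6 was 0.143 ± 0.002. In DMSO astrocytes they were 0.0951 ± 0.0181 (SD, n = 3), 0.135 ± 0.0388 and 0.0240 ± 0.0028. Within each table, transcripts of the inducible subunits stood above those of the counterpart for 2 of the 3 pairs in microglia and below for all 3 in astrocytes; the exon lengths differed between the tables.

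After T/S/Z the ratios moved in opposite directions in the 2 cell types. In astrocytes Psmb8 to Psmb5 reached 0.594 ± 0.0403, Psmb10 to Psmb7 reached 0.571 ± 0.0823 and Psmb9 to Psmb6 reached 0.0966 ± 0.0108, each with no overlap with DMSO, and with Nec-1s they were 0.594, 0.513 and 0.0963. In microglia after T/S/Z they were 0.848 ± 0.0206, 0.81 ± 0.03 and 0.0586 ± 0.0035, each below every DMSO library, and with Nec-1s they were 0.926 ± 0.0505, 1.06 ± 0.0611 and 0.102 ± 0.0068. The constitutive Psmb6 was called higher there, by 0.97 (SE 0.04), and Psmb5 was 0.58 higher without passing the fold minimum. After T/5z the microglial ratio of Psmb10 to Psmb7 was 1.31 ± 0.0829, above every DMSO library, and that of Psmb9 to Psmb6 was 0.0968 ± 0.0073, below every DMSO library. Psmb8 to Psmb5 overlapped DMSO at 1.12 ± 0.102. The direction of change between the cell types was not tested.

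**Figure D5:**
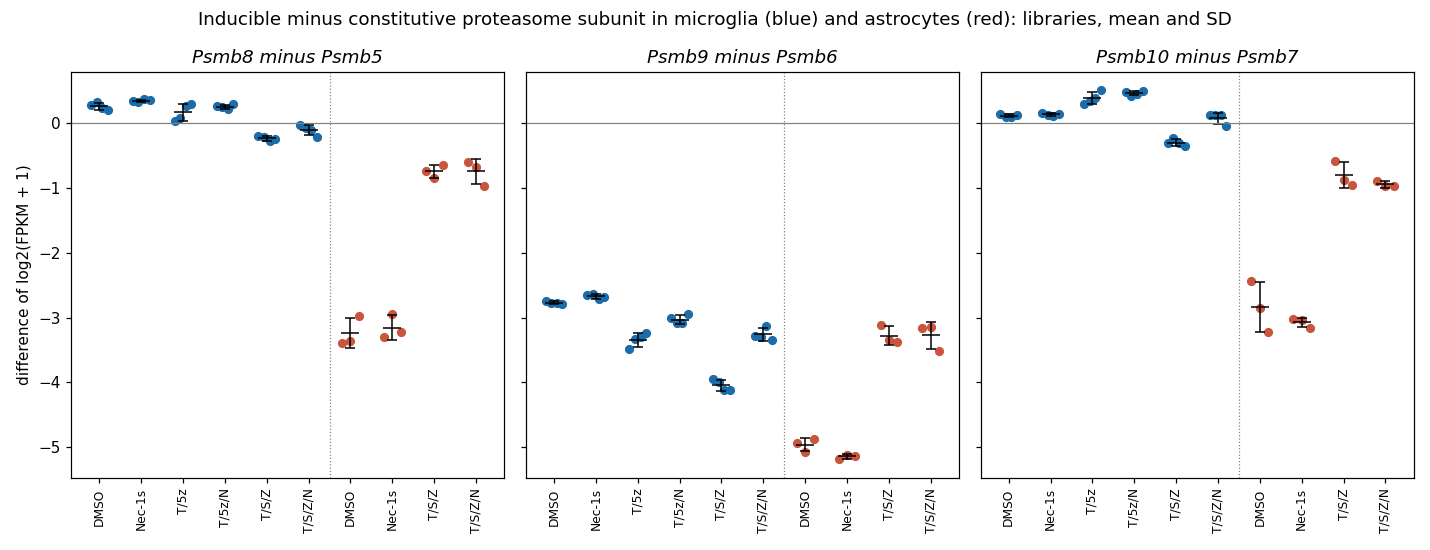
Difference in log2(FPKM + 1) between each inducible proteasome subunit and its constitutive counterpart, in each library (points) with the group mean and SD; microglia are blue and astrocytes red. After T/S/Z the astrocyte points for Psmb8 minus Psmb5 stand between -0.84 and -0.65, against -3.39 to -2.97 in DMSO.

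The other class I genes, mostly the class Ib family, were followed from a list of 17 genes, of which 12 were tested in each table. In astrocytes T/S/Z called 7 higher and none lower (6.39% of all genes were called higher, list median 1.00, all genes -0.11), with H2-Q6 at 2.90, H2-Q4 at 2.56 and H2-Q7 at 1.76. Of those tested, 3 (H2-K2, H2-Q5 and H2-T10) lay below a level of 1 in every DMSO astrocyte library and passed the filter on low values only through other groups, and 2 of the 7 calls were among them, so those calls and the list median give no support. In microglia T/S/Z called 5 higher and 1 lower (29.6% of all genes were called in either direction, list median 0.19, all genes -0.08), with H2-M2 at 3.42, H2-Q5 at 1.53, H2-Q6 at 1.48 and H2-Q7 at 1.26, and T/5z also called 5 higher and 1 lower (11.1% of all genes were called higher and 13.3% lower). Against T/S/Z, Nec-1s called 2 lower in microglia, H2-M2 (-1.90) and H2-Q5 (-0.59), where 12.1% of all genes were called in either direction, and none in astrocytes, where 3.1% were. These genes are close copies, so their values are uncertain in the same way as those of H2-K1 and H2-D1.

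The general loading machinery was read against 6.39% of all genes called higher in astrocytes and 29.6% called in either direction in microglia. Of 9 genes for folding, loading and trimming in the endoplasmic reticulum, astrocyte T/S/Z called 2 higher, the tapasin relative Tapbpl (1.97) and the peptide-trimming enzyme Erap1 (0.69), and none lower, with a list median of -0.08. Microglial T/S/Z called 1 higher, the chaperone Hspa5 (1.06), and 1 lower, the aminopeptidase Lnpep (-0.998), with a list median of -0.06. Of 8 genes for the proteasome activator and for assembly, T/S/Z called the PA28 subunits Psme2 (0.97) and Psme1 (0.83) higher in astrocytes and Psme2 (0.94) in microglia, where the assembly chaperone Psmg2 differed by -0.51 without passing the fold minimum. Of 11 other subunits of the core proteasome, none was called in astrocytes, where limma gave Psma6 0.51 and Psmb4 0.26. Psma6 (0.70) was called in microglia, where Psmb4 differed by 0.53. None of the 3 constitutive catalytic subunits was called in astrocytes, with Psmb5 at 0.34 and Psmb6 at 0.15.

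The list of 14 transcriptional regulators of class I genes included interferon regulatory factors, NF-kB subunits and the RFX and NF-Y factors. T/S/Z called 7 higher and 1 lower in astrocytes (list median 0.59), where 6.39% of all genes were called higher and 8.99% lower, and 5 higher and 2 lower in microglia (list median 0.30), where 29.6% of all genes were called in either direction. Irf1, an interferon regulatory factor that acts on class I promoters, changed by 3.13 (SE 0.07) in astrocytes after T/S/Z. In microglia it changed by 3.16 (SE 0.10) after T/5z and by 1.39 (SE 0.11) after T/S/Z, a direct difference of -1.77 (SE 0.05, limma adjusted p = 3.18e-06). Nec-1s changed Irf1 by -0.90 after T/5z, which was called, and by -0.13 after T/S/Z (limma adjusted p = 0.0604), while in astrocytes the value was -0.10 (limma adjusted p = 0.443). The NF-kB subunit genes Nfkb1 (2.24) and Rela (1.47) and the interferon signalling gene Stat2 (1.25) were called in astrocytes after T/S/Z, and Nfkb1 (1.85), Rela (1.01) and Irf2 (-1.22) in microglia. Stat2 went the other way in microglia, from levels of 4.57 to 4.93 in DMSO down to 4.05 to 4.27 after T/S/Z. Against T/S/Z, Nec-1s called Rela lower in astrocytes (-0.65), where 3.1% of all genes were called in either direction, and none of the list in microglia, where 12.1% were.

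The genes whose levels followed those of a class I gene most closely were read off as a description, over 24 microglial or 12 astrocyte libraries that share their treatment groups and scaling. For Tap1 they were Pgap2 (Pearson r 0.971), Clec4a1 (0.958) and Dtx3l (0.948) in microglia and Slc2a6 (0.995), Bcl3 (0.994) and Il18bp (0.992) in astrocytes. For H2-K1 they were Chmp2a (0.912), Rps13 (0.911) and Rps6 (0.909) in microglia and Trim47 (0.997), Zswim4 (0.995) and Bcl3 (0.995) in astrocytes. For Nlrc5 they were Herc4 (0.949), Pde4a (0.936) and Trafd1 (0.931) in microglia and Zc3h12c (0.978), Ifnar2 (0.977) and Trabd2b (0.974) in astrocytes. No gene stood in the leading 3 of one gene in both tables.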

How the data were processed

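RNA of 24 microglial and 12 astrocyte libraries was analysed from 2 tables of log2 values. Per the study's methods, the authors aligned and quantified reads with OmicSoft Array Studio 10.1.1.3, then normalized the values and took their log2. The deposited values are described as log2(FPKM + 1), scaled to a common 75th percentile. Microglial and astrocyte libraries came from different providers, the astrocyte ones by a strand-specific protocol on oligo-dT-selected RNA. The paper itself names BGI DNBseq sequencing for both cell types together. The aligner is not given in the sources used here, and gene coordinates are those of GRCm38. Groups followed the labels, where the astrocyte vehicle is spelled DSMO.

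Genes with a log2 value of at least 1 in at least 4 microglial or 3 astrocyte libraries were tested, 10524 and 13842 genes. Each comparison was fitted to its own groups with limma 3.58.1 (R 4.3.3), with a trend and the replicate number as a block, after the study's paired test. P-values are two-sided and adjusted by Benjamini-Hochberg over all genes tested; a call also needed a fold change over 1.5. The procedure was tested on simulated data. Python 3.11.15 was used for summaries and motif searches.

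The members and gene lists were chosen with earlier results of these data known. Named from a list were the 2 to 4 genes with the largest changes called after T/S/Z (where fewer than 2 were called, those with the largest changes, given as values), and from likeness the 3 genes with the highest r for Tap1, H2-K1 and Nlrc5; Irf1 under other treatments was named after its values were seen. Alternatives were another pseudocount, other filters, scalings, fold minimums and sample sets, a fit without the block, and each replicate left out.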

Additional observations from a re-analysis of the deposited data

Results flagged for a closer look

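Among 60 sets of 4 microglial libraries, one set for each gene and treatment, 2 held a library far from the other three, where chance gives about 5%. These were the highest H2-D1 library of DMSO microglia, at a level of 11.69, and the highest Tapbp library of Nec-1s microglia, at 7.99.

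With no fold minimum, the effect of Nec-1s differed between the stimuli in microglia for 3 genes by the test of the difference in limma. The differences were -0.47 for Tap1, -0.47 for Tap2 and -0.24 for Tapbp, where 14.8% of all genes tested were lower. With the fold minimum none of the 10 was called (6.47% of all genes tested). For 4 genes every T/S/Z library lay below its DMSO counterpart in microglia and above it in astrocytes, a pattern that 6.41% of 9912 genes tested in both tables showed. Tap1 changed by -0.19 in microglia and 1.98 in astrocytes, Tapbp by -0.32 and 1.32, Psmb9 by -0.30 and 1.83, and Nlrc5 by -0.31 and 1.32. The difference between the cell types was not tested, since the tables were normalized separately.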

How the results depend on the processing

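Of 715 values of single class I genes under the alternatives, 682 kept their direction and their side of the threshold. Without the replicate block the counts of class I genes called did not move in any comparison (microglia had 3 genes for T/5z and 0 genes for T/S/Z, astrocytes had 9 for T/S/Z), and no single gene gained or lost a call. Tap1 in astrocyte T/S/Z/N against T/S/Z, below the fold minimum, had an adjusted p of 0.0664 without it. Deviations of same-numbered libraries correlated between -0.46 and 0.26 in microglia and between -0.14 and 0.41 in astrocytes. In microglia the replicate means had been made equal beforehand, so neither the correlations nor the fit without the block test the pairing there. The fold minimum moved the counts most often. With no minimum, microglia had 6 genes after T/5z (27.4% of all genes tested were higher) and 9 after T/S/Z (30.3% higher, 41.1% lower). For T/S/Z against T/5z they had 9 (18.7% higher, 21.4% lower). They had 6 for T/5z/N against DMSO and 3 for T/S/Z/N against DMSO. There 5117 and 5602 of 10524 genes had an unadjusted p under 0.05, as did 7 and 4 of the 10. For Nec-1s on top of T/5z they had 1 (21.1% lower), and on top of T/S/Z 4 (34.1% higher). The difference of the Nec-1s effects gave 3 (14.8% lower), and astrocytes had 3 for Nec-1s on top of T/S/Z (3.77% lower). With a minimum of 2, microglia had 1 gene after T/5z and 0 for T/5z/N against DMSO and for T/S/Z against T/5z. Astrocyte T/S/Z/N against DMSO went from 9 genes to 7 with a minimum of 2 and to 10 with none. Quantile normalization gave microglial counts of 1 after T/5z, 1 after T/S/Z and 0 for T/5z/N against DMSO, and 5 added before the log gave 1 for the last. Leaving out 1 replicate gave 1 to 2 genes for T/5z/N against DMSO and 0 to 2 for astrocyte T/S/Z/N against T/S/Z. Shares of all genes are not given for the other counts here, which describe only how the calls of the class I genes moved. Directions turned under quantile normalization in microglia: after T/5z for B2m (0.23), H2-K1 (-0.091) and Tapbp (-0.057), after T/S/Z for H2-K1 (-0.26), H2-D1 (-0.24), Psmb8 (-0.31) and Psmb10 (-0.17), and for T/S/Z against T/5z for H2-K1 (-0.17) and H2-D1 (-0.13). Centring on the library median turned B2m (0.043) and H2-D1 (0.030) after T/5z. Leaving out 1 replicate gave -0.075 to 0.015 for B2m after T/5z in microglia and -0.050 to 0.17 for B2m in T/S/Z/N against T/S/Z in astrocytes. Nlrc5 in astrocyte T/S/Z/N against DMSO lost its call with 5 added before the log (0.38). The cause of these shifts was not tested.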

Other observations

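Genes around the class I pathway were also followed. Of the interferon ligands, receptors and kinases, 10 were tested in microglia and 9 in astrocytes. T/S/Z called 5 higher and none lower in astrocytes (6.39% of all genes were called higher), with the interferon response inhibitor Usp18 at 1.83, Ifngr2 at 1.62 and Ifnar1 at 1.00. In microglia it called 4 higher and none lower (29.6% of all genes were called in either direction), with the kinase Jak2 at 1.27 and Ifngr1 at 0.66 besides Ifnb1 and Socs1. The interferon beta gene Ifnb1 in microglia and Socs1 in both tables lay below a level of 1 in every DMSO library and passed the filter on low values only through other groups, so their calls give no support. Ifnb1 stood at -0.23 to 0.31 in DMSO and at 1.07 to 1.97 after T/S/Z. Against T/S/Z, Nec-1s called Usp18 lower in astrocytes (-0.74), where 3.1% of all genes were called in either direction. It also called Ifnb1 lower in microglia and Socs1 lower in astrocytes, calls to which the same limit applies.

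MHC class II genes, which present peptides to CD4+ T cells, were followed as well. Of 11 listed genes 6 passed the filter in microglia. T/S/Z called H2-Ab1 and H2-Eb1 higher there, but both lay below a level of 1 in every DMSO library and passed only through other groups, so these calls give no support either, and none of the other 4 was called. In astrocytes T/S/Z called Cd74 (1.27), the invariant chain, higher and Ctss (-0.78), a protease of class II maturation, lower of 7 tested, where 6.39% of all genes were called higher and 8.99% lower. The microglial markers in those astrocyte libraries also went down, as given above, and the part of this in the Ctss value was not tested.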
